A study of Canis lupus familiaris with 10 samples.

Results

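Chromatin remodeling genes encode the ATPases that slide, space or evict nucleosomes and the subunits that steer them. They were examined in cultured hemangiosarcoma cells from 10 dogs. The 44 genes listed belong to the ISWI, SWI/SNF, CHD and INO80 families and some related SNF2 ATPases. They were chosen by name as members of these complexes. Earlier results of these data were known at that point, and the study had picked SMARCA1 from these arrays. Every probe set that the array annotation gives to the listed genes was taken. The annotation named 42 of them, among 15115 named genes in all, and gave them 120 probe sets. ARID2 and RBBP7 were not among the named genes. For 41 genes, 97 probe sets exceeded the 40th percentile of signals in 3 or more of the 10 arrays and were tested. CECR2, an ISWI partner, had its signals below that percentile on all 10 arrays, from 2.73 to 3.01 and from 4.39 to 4.74 at its probe sets, and is given no comparison.

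Hemangiosarcoma is a malignant tumor that forms blood-filled vascular channels, and all 10 tumors came from the spleen. RNA of cells from the earliest cryopreserved passages, 1 culture and 1 array per dog, was hybridized to Affymetrix Canine_2 arrays. The Golden Retriever group held ChadG4, ChadG8 and Tucker, all male, and ChadG6, Frog and Journey, all female, aged 6 to 12 years, and per the study Frog and Journey were related. The non-Golden Retriever group held 3 male dogs aged 7 to 9 years, ChadP9 (labelled Portugese Water Dog), Dal4 (Dalmation) and Joey (Rottweiler in its title, with its own name in the breed field). DD1, labelled Golden Mix, was a male F1 dog of 9 years that the study describes as a Golden Retriever and Great Pyrenees cross. The labels give no treatment of the cultures, and no array was made again from the same culture. Every SD below is therefore the spread between dogs, with any error of culture and array included. Signals are log2 values, so a difference of 1 is a doubling of signal.

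Remodelers couple ATP hydrolysis to the movement of DNA around the histone core. ISWI enzymes set evenly spaced arrays of nucleosomes, SWI/SNF complexes open DNA at promoters and enhancers, and CHD4 works with histone deacetylases in the repressive NuRD complex. The ATPase of a complex is often supplied by either member of a gene pair, such as SMARCA1 or SMARCA5 in ISWI and SMARCA2 or SMARCA4 in SWI/SNF, and genes for several SWI/SNF subunits are recurrently mutated in cancers.

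The cells were checked against marker genes of the labelled tumor type. Of 15 endothelial markers, 7 exceeded the 40th percentile of signals on all 10 arrays, while PECAM1, TEK, EMCN and ESAM did on none. ERG, FLT1, VWF and ENG did on 9, 4, 2 and 1 arrays. The list of 8 fibroblast markers had a mean signal of 11.24 to 12.12 in Golden Retrievers and 10.45 to 12.04 in non-Golden Retrievers, lowest in Dal4. In that dog LUM had 4.40, below the percentile, while it had 12.47 to 14.08 in the other dogs. The other 7 fibroblast markers exceeded the percentile on all arrays. Smooth muscle and pericyte markers did so for 5 of 8 genes, with RGS5 above it on no array, and mean signals of 6.40 to 8.80 and 7.28 to 8.59. Blood markers did so for 4 of 9 genes, with the pan-leukocyte gene PTPRC above it on no array. A signal above this percentile does not by itself show expression. The endothelial marker CDH5 passed on all 10 arrays at 5.15 to 5.41, and the blood marker CD3E did at 6.19 to 6.61. The endothelial means, 5.24 to 5.77 and 5.09 to 5.70, and the blood means, 5.12 to 5.53 and 5.03 to 5.37, overlapped between the groups as the others did. In such bulk samples fewer cells of a type and less RNA per cell cannot be told apart, and the part of cell makeup in the results that follow was not tested.

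SMARCA1 stood apart from every other remodeling gene in the breed comparison, and its closest paralog did not share the difference. The gene encodes an ISWI ATPase, known as SNF2L, that works in the NURF complex, and it lies on chromosome X from 101565278 to 101638177 of UU_Cfam_GSD_1.0. At its brighter probe set the Golden Retriever signal ran from 7.07 over a median of 7.81 to 8.58. The non-Golden Retrievers ChadP9, Dal4 and Joey had 6.28, 5.85 and 6.02, and the F1 dog had 7.60. Every Golden Retriever and the F1 dog thus lay above every non-Golden Retriever. The log2 difference, coded as Golden Retrievers minus the other breeds, was 1.76 (SE 0.291, 95% interval 1.11 to 2.42, n = 6 and 3, adjusted p = 0.667 by limma over 26891 probe sets), which did not pass the adjusted test. The study picked SMARCA1 from these same arrays, so its values are a description and no independent evidence. Among male dogs alone, 3 against 3, the difference was 2.01 (adjusted p = 0.825 by limma), and counting the F1 dog as a non-Golden Retriever made it 1.37 (adjusted p = 0.999 by limma).

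The other SMARCA1 probe set separated the same dogs. Its signals in non-Golden Retrievers, 4.77, 4.83 and 4.88, lay under the 40th percentile of those arrays, so it entered the test only through the dogs in which it was high, where it ran from 5.84 to 7.04 and was 6.14 in the F1 dog. Tucker was highest and ChadG4 next at both probe sets, and Frog was the lowest Golden Retriever at both.

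SMARCA5 encodes SNF2H, the ISWI ATPase of the ACF, CHRAC, WICH, NoRC and RSF complexes, on chromosome 15 from 43023307 to 43063521. Its probe set of highest mean ran from 9.89 over a median of 10.28 to 10.63 in Golden Retrievers and was 10.26, 10.23 and 10.82 in ChadP9, Dal4 and Joey. The groups overlapped, and the log2 difference was -0.18 (SE 0.195, 95% interval -0.61 to 0.26, adjusted p = 0.893 by limma). This interval excludes a difference the size of that of SMARCA1. A second probe set had 0.01 (95% interval -0.44 to 0.45). The dimmest, with signals of 4.98 to 6.72, had -0.74 (SE 0.318, unadjusted p = 0.0432 and adjusted p = 0.774 by limma), with Frog among the non-Golden Retriever values.

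**Figure D1:**
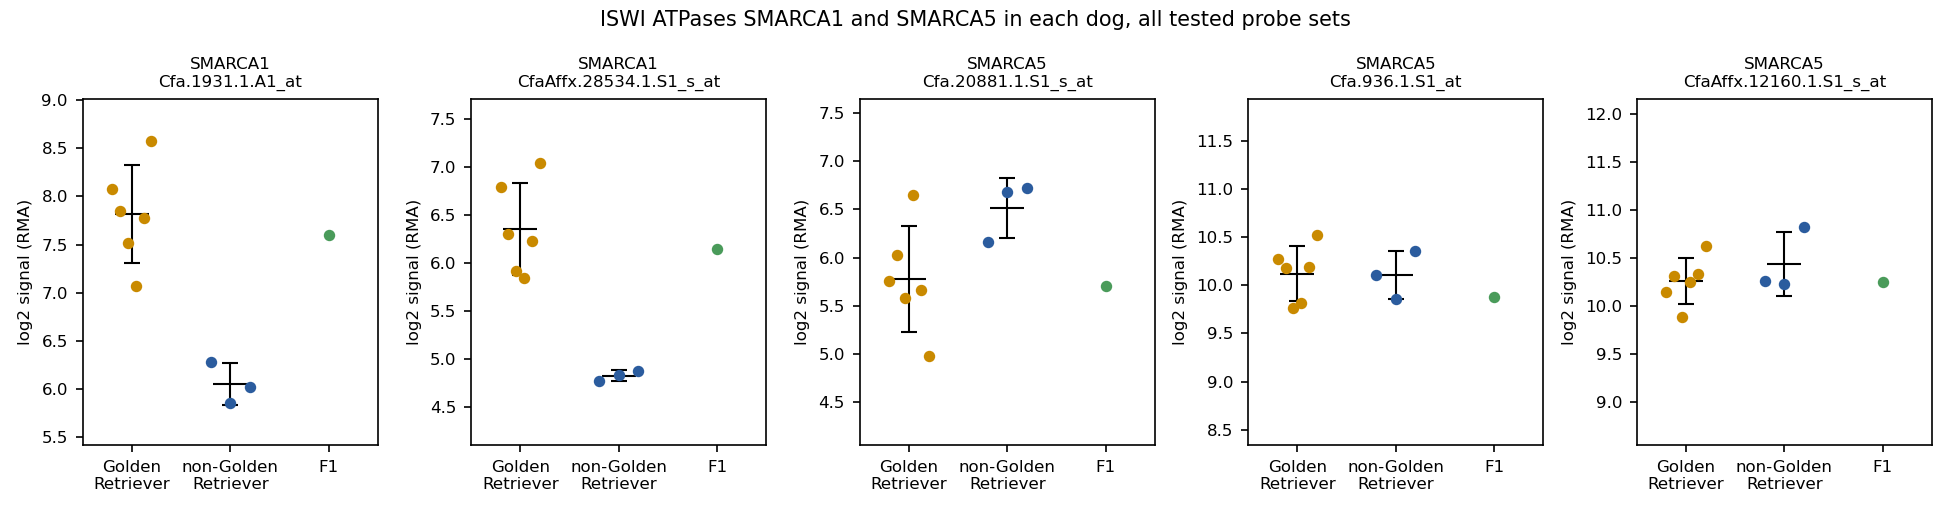
Log2 signal of both SMARCA1 probe sets and all 3 SMARCA5 probe sets, with 1 point per dog, the group mean as a bar and the SD as whiskers; the axes span the same number of log2 units but start at different levels. At both SMARCA1 probe sets the 6 Golden Retrievers and the F1 dog lie above the 3 non-Golden Retrievers, while the SMARCA5 points of the groups overlap.

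To set the paralogs against each other within each culture, the signal of SMARCA5 was subtracted from that of SMARCA1 in every dog. Signals of different probe sets are not on a common scale, so the size of this value has no meaning by itself and only its change between dogs was read. It ran from -3.18 in Frog to -2.05 in Tucker among Golden Retrievers, was -3.98 in ChadP9, -4.38 in Dal4 and -4.80 in Joey, and was -2.65 in the F1 dog. The groups did not overlap, with means of -2.45 ± 0.412 (SD, n = 6) and -4.39 ± 0.412 (SD, n = 3). The difference of 1.94 gave p = 0.0119 in the two-sided exact permutation test over the 84 splits of the dogs, the smallest p these numbers of dogs allow, and since the gene was picked on these arrays this p is no independent evidence. Among male dogs alone the difference was 2.22 (exact permutation test, p = 0.10, the smallest for 3 against 3).

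Among the other gene pairs whose products take the same place in a complex, every comparison overlapped between the breed groups. SMARCA4 minus SMARCA2, the SWI/SNF ATPases, differed by 0.05, with values from -0.63 to 0.64 in Golden Retrievers and -0.41 to 0.29 in the others. ARID1A minus ARID1B, the DNA-binding subunits of canonical BAF, differed by -0.40, SMARCC1 minus SMARCC2, the scaffold subunits, by -0.09, and CHD3 minus CHD4, the NuRD ATPases, by 0.30. MTA1 minus MTA2, the NuRD scaffold proteins, differed by 0.41, and the 3 pairings among SMARCD1, SMARCD2 and SMARCD3 by -0.53 to -0.13.

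Over all 41 genes, each with its probe set of highest mean, 0 passed an adjusted p of 0.05 in the breed comparison by limma, where 0.00372% of all tested probe sets did. The methods' t-test also gave 0. At an unadjusted p under 0.05, limma called 3 genes, 7.32%, beside 6.32% of all tested probe sets. SMARCA1 was higher and BAZ2B and ARID1A were lower in Golden Retrievers. The methods' t-test called these and CHD4, 4 of 41 genes, beside 5.65% of all tested probe sets. The groups did not overlap for the 3 genes called by limma, 7.32%, beside 2.45% of all tested probe sets. By direction, 0.792% of all tested probe sets lay higher and 1.66% lower in Golden Retrievers without overlap. SMARCA1 was picked by the study from these same arrays. Without it, 2 of 40 genes, 5.0%, had an unadjusted p under 0.05 by limma, and 5.0% did not overlap. Counted by probe set, 8 of 97 had an unadjusted p under 0.05, beside 1.81% higher and 4.50% lower of all tested. Of these, 2 were higher, both of them SMARCA1, and 6 lower. The share of remodeling genes at an unadjusted p under 0.05 is thus near that of the whole array, and the share without overlap is 3 genes of 41. The filter admits a gene that is high in 1 group alone, so these counts are over the genes that passed it.

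Most differences were small. Of 41 genes, 27 were lower in Golden Retrievers, 65.9%, where 52.8% of all tested probe sets were, with medians of -0.09 and -0.02. With arrays centred on their medians, 21 were lower, 51.2%, beside 42.2% of all, and the share of all calls at an unadjusted p under 0.05 that were higher moved from 28.7% to 46.3%. The family medians were -0.09 for 11 ISWI genes, -0.03 for 16 SWI/SNF genes, -0.25 for 9 CHD and NuRD genes and -0.13 for 5 INO80 and other SNF2 genes. Apart from SMARCA1, the differences of the other 40 genes ran from -0.73 to 0.26.

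**Figure D2:**
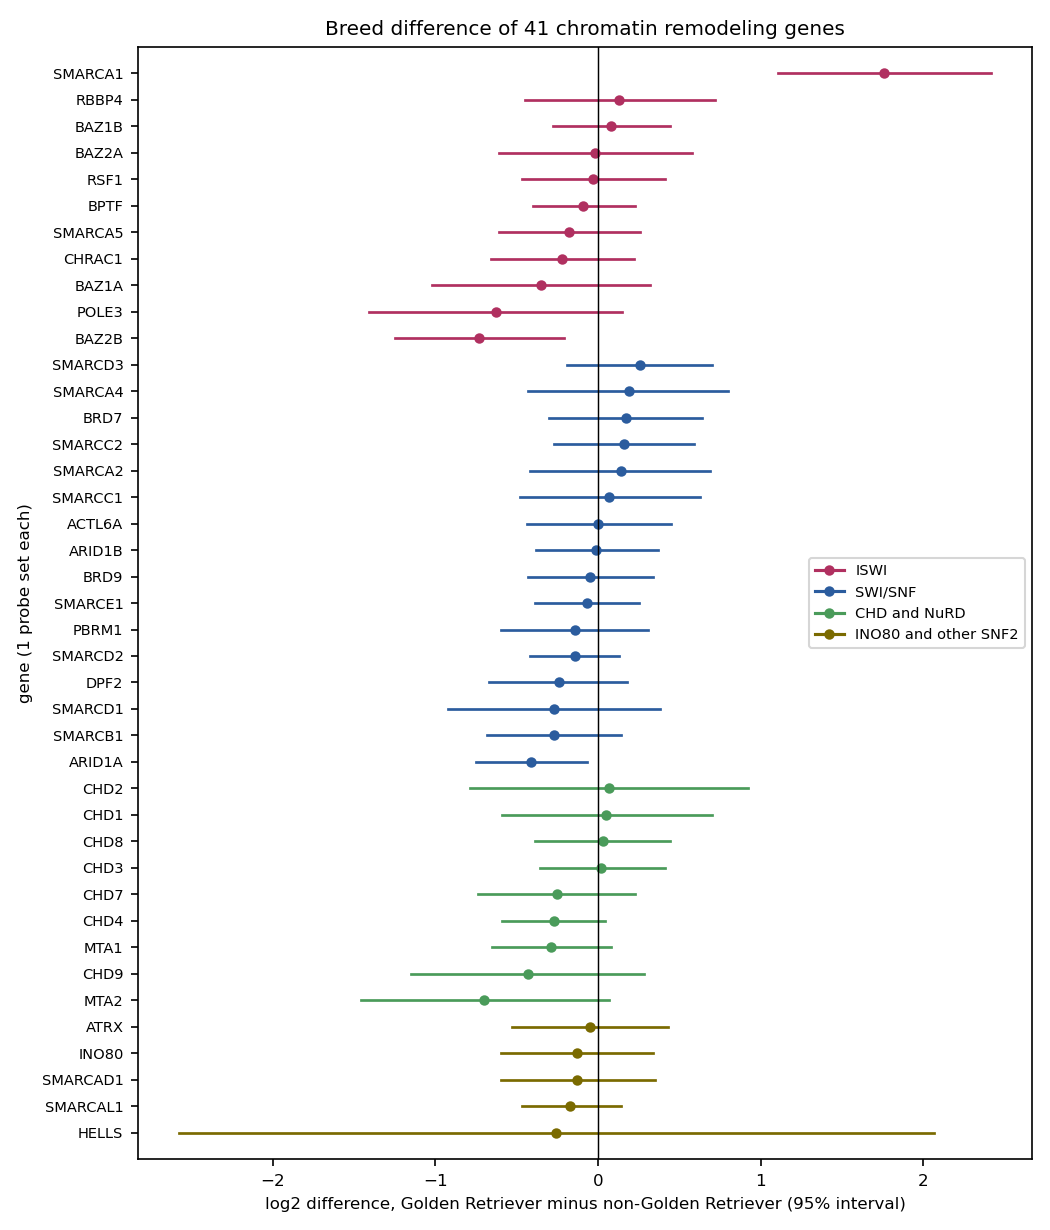
Log2 difference between the breed groups (Golden Retrievers minus the other breeds) of 41 remodeling genes with 95% intervals from limma, 1 probe set per gene, ordered by size within each family. SMARCA1 lies at 1.76, the intervals of BAZ2B and ARID1A lie below 0, and all other intervals cross 0.

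The subunits that work with SMARCA1 and SMARCA5 were measured in the same cultures. BPTF, the large NURF subunit that reads histone marks, had signals of 8.39 to 8.75 in Golden Retrievers and 8.59 to 8.98 in non-Golden Retrievers, with a log2 difference of -0.09 (95% interval -0.40 to 0.23) and of 0.00 and 0.15 at its other probe sets. RBBP4, the histone chaperone shared by NURF, NuRD and other complexes, had 0.13 (95% interval -0.45 to 0.72), and 0.47 and 0.50 at its other probe sets. At the first, the difference turned to -0.10 without ChadP9 and was 0.36 without Dal4. The groups overlapped at all 3 probe sets of each NURF partner.

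The partners of SMARCA5 differed by less than the test could call. BAZ1A, the ACF subunit, had -0.35 (95% interval -1.02 to 0.32), and -0.54 without ChadG4, its highest dog. At a BAZ1A probe set of lower signal the Golden Retrievers ran from 5.44 to 6.75 and the others from 6.71 to 6.96, a difference of -0.82 (SE 0.316, unadjusted p = 0.0284 and adjusted p = 0.774 by limma). BAZ1B of WICH had 0.08, BAZ2A of NoRC had -0.02, RSF1 had -0.03, and CHRAC1, a histone-fold protein of CHRAC, had -0.22. POLE3, the other histone-fold subunit of CHRAC and also part of a DNA polymerase, had -0.63 (95% interval -1.41 to 0.15), with 5.74 to 7.29 in Golden Retrievers and 6.90, 7.58 and 7.02 in ChadP9, Dal4 and Joey.

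BAZ2B, a bromodomain protein that can pair with ISWI ATPases, was lowest in Journey at 5.24 and reached 6.15 in Tucker and 6.23 in ChadG6, with a Golden Retriever median of 5.70. It was 6.68 in ChadP9, 6.54 in Dal4 and 6.23 in Joey. The groups touched, since ChadG6 and Joey had the same signal to 2 decimals. The log2 difference was -0.73 (SE 0.232, 95% interval -1.25 to -0.21, unadjusted p = 0.0113 and adjusted p = 0.774 by limma), and a second tested probe set gave -0.16 (95% interval -0.69 to 0.38). The difference of the gene thus rests on 1 probe set.

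In SWI/SNF, ARID1A, the DNA-binding subunit of the canonical BAF complex and a known tumor suppressor, was the gene with an unadjusted p under 0.05. Its signal ran from 8.49 in Journey over a median of 8.87 to 8.98 in ChadG8, and was 9.08, 9.45 and 9.20 in ChadP9, Dal4 and Joey. All 6 Golden Retrievers had less signal than any of these 3 dogs, and the F1 dog had 9.13. The log2 difference was -0.41 (SE 0.151, 95% interval -0.75 to -0.07, unadjusted p = 0.0234 and adjusted p = 0.774 by limma). It was -0.30 without Dal4 and -0.34 both with array centring and among male dogs alone, and in all 3 settings was no longer under an unadjusted p of 0.05. A dimmer ARID1A probe set overlapped between the groups, at -0.25 (95% interval -0.61 to 0.10). The other 15 SWI/SNF genes had intervals that crossed 0, from -0.27 for SMARCB1, the core subunit lost in rhabdoid tumors, to 0.26 for SMARCD3, a muscle-linked accessory subunit.

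CHD4, the NuRD ATPase, had a lower signal in Golden Retrievers at all 5 of its probe sets, by differences of -0.46 to -0.02. The largest, -0.46 (SE 0.183, unadjusted p = 0.0317 and adjusted p = 0.774 by limma), came from signals of 7.20 to 7.95 against 7.92, 8.28 and 7.80 in ChadP9, Dal4 and Joey, which overlap through Frog. At another probe set the groups touched without overlap, with a highest Golden Retriever at 8.66 and Joey at 8.66, a difference of -0.31. At the probe set of highest mean the difference was -0.27 (95% interval -0.59 to 0.04), and Dal4 was the highest dog at all 5.

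MTA2, a scaffold protein of NuRD, had the largest difference of the CHD and NuRD genes, -0.70 (95% interval -1.46 to 0.07, adjusted p = 0.776 by limma), but its signals overlapped between the groups. Frog and Tucker were low at 6.76 and 6.67, while the other 4 Golden Retrievers ran from 7.69 to 7.85 and ChadP9 had 7.63. CHD1, a remodeler of transcribed genes, had -0.47 (unadjusted p = 0.0231 and adjusted p = 0.774 by limma) at 1 probe set and 0.05 and -0.21 at its others. CHD7, an activator bound at enhancers, was high at a pair of probe sets in Tucker, Dal4 and Joey, with 7.24, 6.67 and 6.64 against 4.38 to 5.48 in the other dogs at the first, and 6.51, 6.13 and 6.52 against 4.66 to 5.25 at the second. These 3 dogs come from both breed groups, and at the probe set of highest mean, where CHD7 ran from 6.51 to 7.45, they did not stand apart.

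The other SNF2 ATPases had no probe set of any gene at an unadjusted p under 0.05. INO80, the ATPase of the complex of that name, had -0.13, SMARCAD1, which restores silent chromatin behind replication forks, had -0.13, and SMARCAL1, which rewinds DNA at stalled forks, had -0.17. ATRX, which deposits a histone variant at silent chromatin, is the only other gene of the list with a position on chromosome X in the table used, which holds none for RBBP7. It lies from 59917163 to 60249816. Its 6 tested probe sets had differences of -0.49 to -0.05 and thus ran against SMARCA1. At its probe set of highest mean the difference of -0.05 (95% interval -0.53 to 0.43) changed sign with array centring, to 0.02. ChadG4 was the highest dog at 2 of the 6, and over 338 X-linked genes outside the list the mean deviation of this dog from the mean of the 10 arrays was 0.52, and that of the others -0.16 to 0.01. Without ChadG4 the SMARCA1 difference was 1.71.

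Probe sets of a gene did not always point the same way. Of 28 genes with more than 1 tested probe set, 10 had differences of both signs. When the probe set of largest SD stood for each gene, 6 of 41 genes, 14.6%, had an unadjusted p under 0.05, beside 7.61% of all named genes taken in that way, and BAZ1A, CHD4 and SMARCA5 joined the 3 named above.

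The SD over the 10 dogs, whatever their group, was taken at the probe set of highest mean of each gene. It was largest for HELLS at 1.50, SMARCA1 at 0.93, MTA2 at 0.58, POLE3 at 0.56 and CHD2 at 0.53. For SMARCA1 this SD holds the gap between the groups, within which its SDs were 0.511 and 0.214. Some other tested probe sets varied more than that of MTA2, among them 1 of CHD7 at 0.909 and 1 of RBBP4 at 0.759. The median SD was 0.272 over the remodeling genes and 0.314 over all named genes tested, each with 1 probe set. Counted by probe set, it was 0.288 over those of the remodeling genes and 0.328 over all tested. CHD2, a remodeler linked to transcribed chromatin, ran from 6.77 in ChadG4 to 8.72 in Journey, both Golden Retrievers, and its breed difference was 0.07 (95% interval -0.79 to 0.92). This spread was that of 1 probe set. At the other tested CHD2 probe sets the SD was 0.125 and 0.253, and ChadG4 lay inside the range of the other dogs. SMARCD2, an accessory SWI/SNF subunit, had one of the smallest spreads at its probe set of highest mean, with an SD of 0.118 and signals of 9.61 to 9.97. At its other tested probe sets the SD was 0.189 and 0.233.

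**Figure D3:**
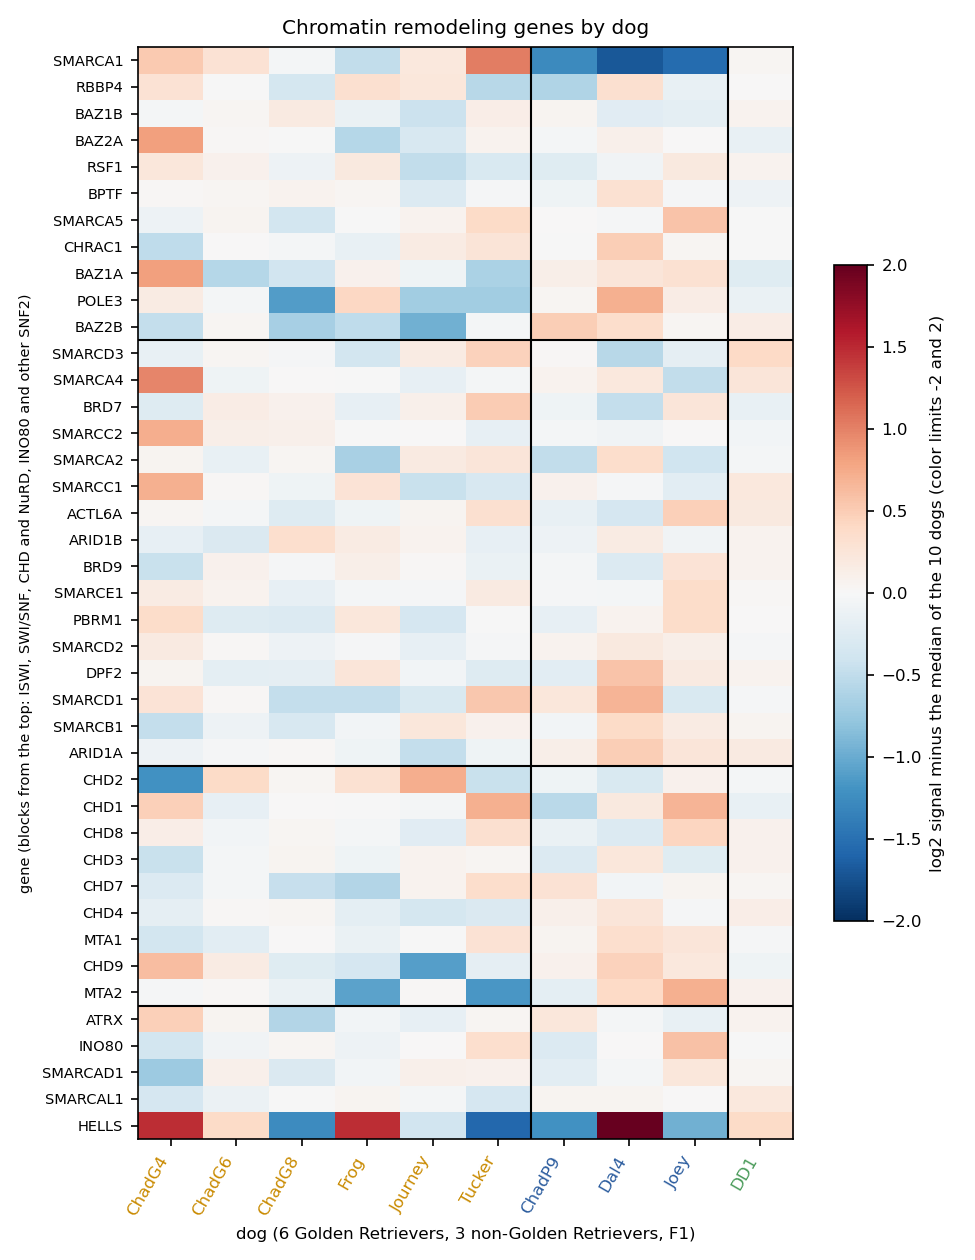
Log2 signal minus the median of the 10 dogs for 41 remodeling genes, 1 probe set per gene, with dogs in columns by breed group and genes in rows by family; colors end at -2 and 2, so values beyond are drawn at the limit. SMARCA1 is low in the 3 non-Golden Retrievers, and HELLS runs from low in Tucker to high in Dal4 across both breed groups.

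Dal4 had the highest signal of the 10 dogs for 14 of 41 genes, 34.1%, where it was highest for 20.7% of all 11143 named genes tested. Its highest genes included CHD4, CHD3 and SMARCB1 at every probe set of each. Journey had the lowest signal for 10 genes, 24.4%, against 5.95% of all named genes, among them PBRM1, the bromodomain subunit of the PBAF complex, at all 3 probe sets and ARID1A at both. Joey was highest for 8 genes and ChadG4 for 9, 19.5% and 22.0%, against 12.2% and 13.7% of all named genes. These are counts over genes of single cultures and carry no test.

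In ChadG4, the dog with the highest signal for 9 of the 41 genes and the lowest for 8, SWI/SNF genes lay at both ends. SMARCA4, the ATPase also known as BRG1, had 11.36 in ChadG4 and 9.89 to 10.63 in the other dogs, and its second probe set had 10.54 against 9.09 to 9.76. SMARCC2, a scaffold subunit that binds beside it, had 7.85 against 6.95 to 7.23, and ChadG4 was the highest dog at 5 of its 6 tested probe sets. SMARCC1, the paralogous scaffold, had 8.27 against 7.11 to 7.83. SMARCA2, the alternative ATPase, did not share this, with 10.72 in ChadG4 inside the range of 10.02 to 11.01 of the other dogs. At its brightest probe set SMARCB1 was lowest in ChadG4, at 9.65 against 9.79 to 10.50, and so was BRD9, a subunit of the noncanonical BAF complex, at 8.99 against 9.15 to 9.70, while at the second SMARCB1 probe set ChadG8 was lowest.

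The ISWI partners BAZ2A and BAZ1A were highest in ChadG4 as well. BAZ2A had 9.23 against 7.84 to 8.50 and BAZ1A 9.69 against 8.23 to 9.17. SMARCAD1 was lowest in this dog at all 3 probe sets, with 8.04, 7.17 and 7.32, where the lowest of the other dogs had 8.49, 7.81 and 7.77. The mean of the smooth muscle and pericyte markers was also lowest in ChadG4, at 6.40, while it was 7.28 to 8.80 elsewhere. ACTA2 had 6.39 in ChadG4 and 9.73 to 14.13 in the other dogs, while CNN1, DES and RGS5 were lowest in other dogs. The part of these markers in the signals above was not tested.

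**Figure D4:**
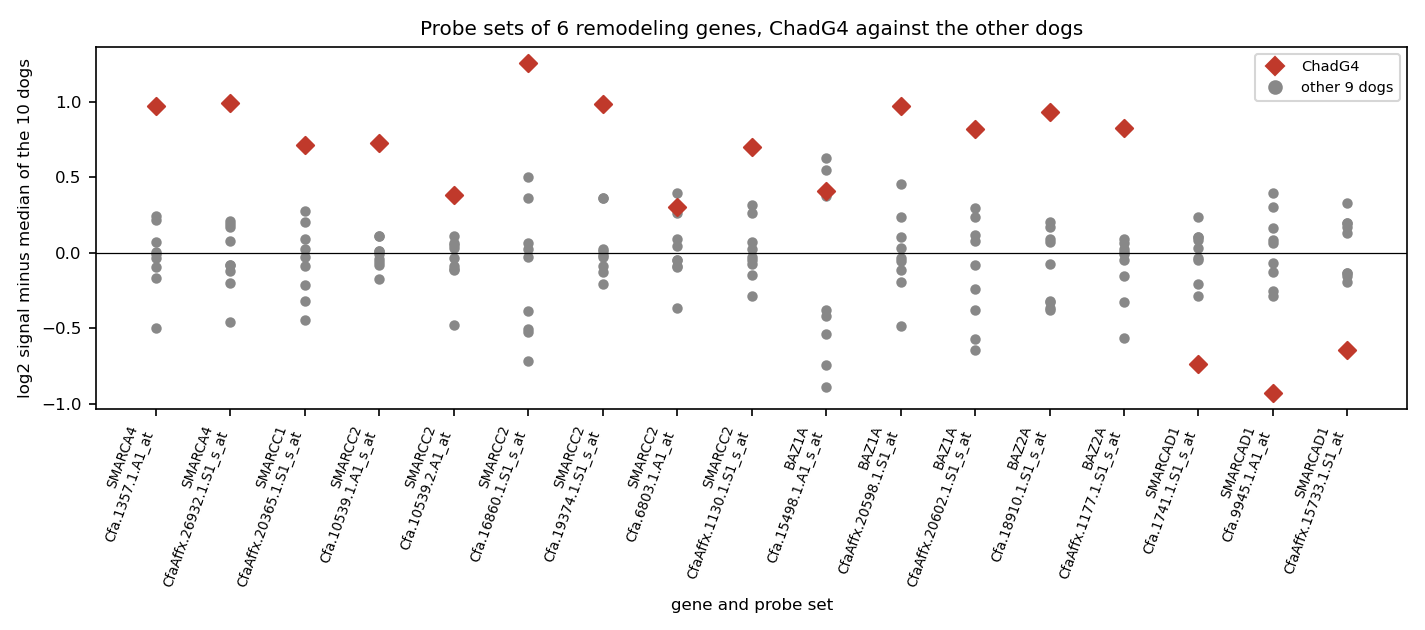
Log2 signal minus the median of the 10 dogs at all tested probe sets of SMARCA4, SMARCC1, SMARCC2, BAZ1A, BAZ2A and SMARCAD1, with ChadG4 as red diamonds and the other 9 dogs as grey points. ChadG4 is the highest dog at both SMARCA4 and both BAZ2A probe sets and the lowest at all 3 of SMARCAD1, while at 1 probe set each of SMARCC2 and BAZ1A another dog is higher.

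Some remodelers are made mainly in dividing cells, so the genes were also set against a proliferation index, the mean centred signal of 34 genes of DNA replication and mitosis, none of them on the list. The index ran from -1.66 in Tucker to 1.69 in Dal4, with 1.02 in Frog and 0.97 in ChadG4, so neither end belonged to 1 breed group. By limma over all 10 arrays, 2 of 41 genes, 4.88%, rose with the index at an adjusted p under 0.05, and none fell, beside 2.72% of all tested probe sets, or 2.34% that rose. The index comes from the same arrays as the genes set against it.

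HELLS, the SNF2 ATPase that maintains DNA methylation at repeats and is known for its expression in proliferating cells, followed the index most closely of the list. Its signal was 4.64 in Tucker, 4.95 in ChadG8, 4.99 in ChadP9, 5.25 in Joey, 5.83 in Journey, 6.59 in DD1, 6.60 in ChadG6, 7.69 in both ChadG4 and Frog, and 9.23 in Dal4. This order was close to that of the index and mixed both breed groups. The slope was 1.43 log2 units of signal per unit of the index (SE 0.109, adjusted p = 4.0e-05 by limma), and with any 1 dog left out it was 1.29 to 1.62. It was 1.42 with the breed group in the fit, and 1.86 and 1.20 on replication and mitosis genes alone, past the adjusted test each time. The breed difference of HELLS was -0.26 with an interval of -2.58 to 2.07, so a breed difference could not be detected through this spread.

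RBBP4 was the other gene past the test. Its slope was 0.31 (SE 0.0622, adjusted p = 0.0286 by limma), on signals from 10.06 in ChadP9 to 10.97 in Frog and Dal4. The call was lost in 6 of 10 settings with 1 dog left out, those without ChadG4, ChadG8, Frog, Tucker, Dal4 or DD1, where the adjusted p by limma was 0.0534 to 0.117, and in 4 of 7 other alternatives, while the slope itself stayed at 0.28 to 0.36 with 1 dog left out. At its other probe sets the slopes were 0.21 (adjusted p = 0.308 by limma) and -0.51 (adjusted p = 0.144 by limma), the latter with low signals of 7.50 in ChadG4 and 7.68 in Dal4 against 8.69 to 9.57 elsewhere.

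**Figure D5:**
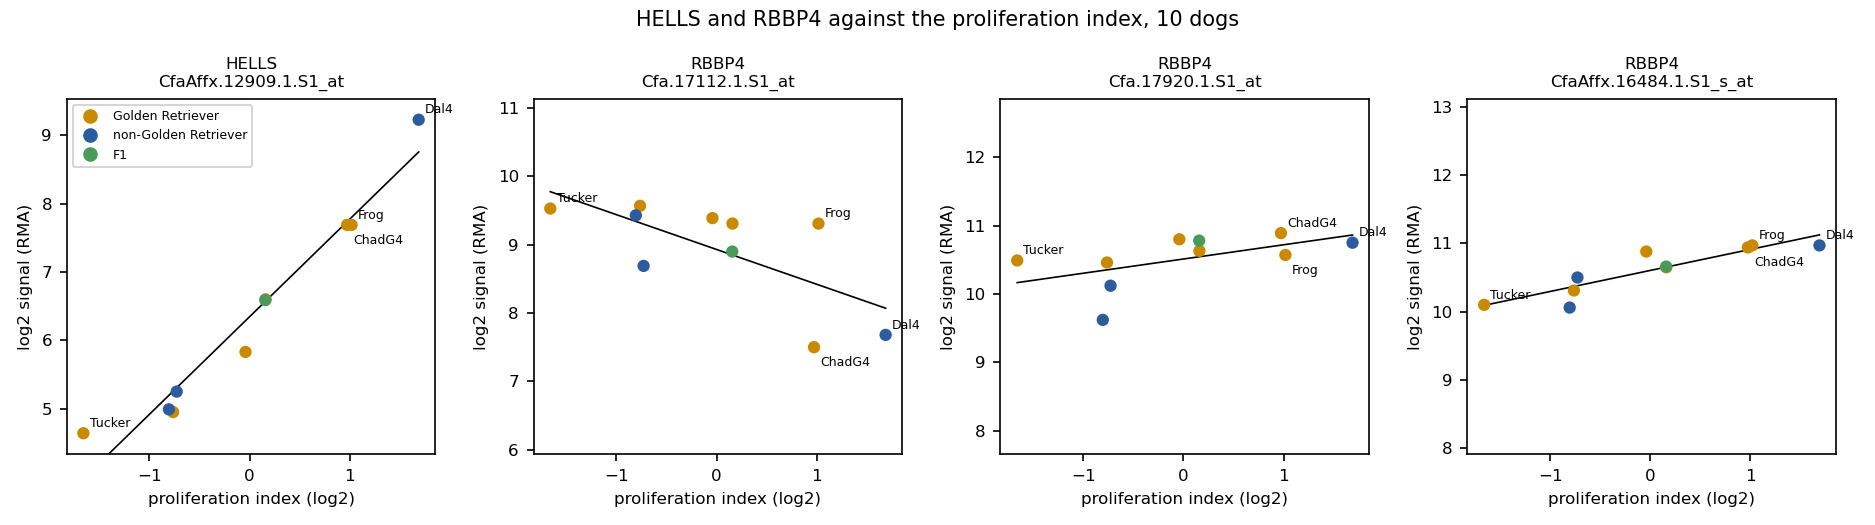
Log2 signal of HELLS and of the 3 tested RBBP4 probe sets against the proliferation index in log2 units, with 1 point per dog colored by breed group and the fitted line of limma over the 10 dogs. HELLS climbs along the line from 4.64 in Tucker to 9.23 in Dal4, while the RBBP4 probe sets have slopes of -0.51, 0.21 and 0.31.

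The other 39 genes stayed short of the adjusted test against the index. BRD7, a PBAF bromodomain subunit, had a slope of -0.24 (adjusted p = 0.058 by limma), with the highest signal, 10.11, in Tucker and the lowest, 9.12, in Dal4. It passed with array centring (slope -0.30, adjusted p = 0.042 by limma) and without ChadP9 (slope -0.27, adjusted p = 0.0344 by limma), and without Dal4 the adjusted p by limma was 0.266. SMARCA1 had -0.25 (SE 0.273, adjusted p = 0.643 by limma), the 16 SWI/SNF genes had a median slope of 0.04 and the 9 CHD and NuRD genes -0.05. At an unadjusted p under 0.05 there were 6 of 41 genes, where 19.3% of all tested probe sets were called, and 24 of 41 had a slope above 0.

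Other remodeling and related genes, 45 tested of 53 listed, were compared in the same fits. Not all of them encode subunits of the complexes above. In the breed comparison 31 were lower, 68.9%, and 14 higher in Golden Retrievers, with a median of -0.07, beside 52.8% lower of all tested probe sets, and 0 passed the adjusted test by limma. At an unadjusted p under 0.05 there were 3, 6.67%, all lower, beside 6.32% of all tested probe sets, 4.50% lower: CHD6 at -0.38, ERCC6, the transcription-coupled repair ATPase, at -0.74, and YY1, the DNA-binding subunit of INO80, at -0.38, the last without overlap of the groups. Against the index, 20 of the 45 had an unadjusted p under 0.05, 44.4%, beside 14.6% of the 41 genes above and 19.3% of all tested probe sets, and the median slope was 0.11 against 0.03. Of these, RAD54L, the recombination ATPase, rose with a slope of 0.66 (adjusted p = 0.0211 by limma), and BCL7B, a BAF subunit, fell with -0.76 (adjusted p = 0.0342 by limma). The 34 proliferation genes had 24 lower in Golden Retrievers and 0 at an unadjusted p under 0.05, with a median of -0.11.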

How the data were processed

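Gene expression was measured on 10 Affymetrix Canine_2 arrays, 1 per dog. The deposited table gives log2 signals, normalized by the authors with RMA (the submitters' processing notes name RMA and affy), and holds 43035 probe sets. From it, 111 control probe sets were left out, and probe sets over the 40th percentile of signals (5.02 to 5.16) in 3 or more arrays were kept, 26891 in all. Detection calls were not used here. RMA brings the arrays to a common distribution, so a change shared by most genes would largely not be seen.

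Genes were named from the platform annotation, which gives 1 gene symbol to 29254 probe sets, several to 439 and none to 13231. No gene was named from a probe set with several symbols. Positions come from UU_Cfam_GSD_1.0, in which 27680 named probe sets were found by gene ID. Some probe sets may share sequence with related genes, so paralogs can be measured together.

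The breed comparison was fitted with limma 3.58.1 in R 4.3.3 on 6 Golden Retrievers and 3 non-Golden Retrievers, without the F1 dog, two-sided, with Benjamini-Hochberg adjustment over all tested probe sets. A second fit over 10 arrays used the proliferation index as covariate. SMARCA1 minus SMARCA5 was compared by exact permutation. Tables were made in Python 3.11.15. Where 1 value stands for a gene, it is the tested probe set of highest mean. The scripts were tested on simulated data. Genes given with values are the ISWI genes, X-linked genes, those at an unadjusted p under 0.05 or without overlap, the 5 of largest SD, those past the index test, and paralog pairs. Other genes given with values (INO80, SMARCAD1, SMARCAL1, CHD7, BRD7, BRD9, PBRM1, SMARCB1 and SMARCD3) were chosen after their values were seen. The members and gene lists were chosen with earlier results of these data known. The alternatives were other filters, tests, centring, probe sets and indices, the F1 dog in either group, male dogs alone, and each dog left out. Each dog gave 1 culture, and the number of arrays limits the precision. Sequences of probes and proteins were not used here.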

Additional observations from a re-analysis of the deposited data

Results flagged for a closer look

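In 5 of 41 remodeling genes, 1 of the 6 Golden Retrievers lay far from the other 5, by a gap of more than 0.625 of the group's range. This is 12.2% of the genes, where 8.35% of all tested probe sets had such a dog. ChadG4 was the highest for SMARCA4, at 11.36 against 10.22 to 10.39 in the other Golden Retrievers, and for SMARCC2, at 7.85 against 6.95 to 7.23. ChadG4 was the lowest for CHD3, at 8.50 against 8.86 to 9.03. Journey was the lowest for ARID1A, at 8.49 against 8.85 to 8.98, and for BPTF, at 8.39 against 8.65 to 8.75. By chance about 1 in 20 groups has such a dog. Each gene was judged here by 1 probe set. Over the 10 dogs, ChadG4 was highest at both tested probe sets of SMARCA4 and at 5 of 6 of SMARCC2, and lowest at 1 of 2 of CHD3. Journey was lowest at both of ARID1A and at 2 of 3 of BPTF.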

How the results depend on the processing

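No member passed the adjusted breed test by limma under any setting tried. SMARCA1 kept its direction throughout, at 1.61 to 1.91 with 1 dog left out (adjusted p 0.254 to 0.999 by limma). The 3 genes at an unadjusted p under 0.05 became 6 by the probe set of largest SD (14.6%, beside 7.61% of all named genes) and 2 to 5 with 1 dog left out. The 5 were without ChadP9 (12.2%, beside 11.7% of all tested probe sets) and the 2 without Dal4 (4.88%, beside 3.60%). They became 1, SMARCA1, without ChadG4 and Dal4 (2.44%, beside 4.02%), a setting chosen after seeing the data. The 27 lower genes became 8 of 15 among the most variable probe sets (53.3%, beside 57.4% of all probe sets in that setting). With 1 dog left out they ranged from 25 without Joey (61.0%, beside 53.5%) to 32 without ChadP9 (78.0%, beside 51.7%). SMARCA1 minus SMARCA5 differed by 2.22 among males alone (exact permutation test, p = 0.10) and by 1.73 to 2.14 with 1 dog left out. Direction changed for ATRX, to 0.02 by centring and within -0.15 to 0.06 with 1 dog left out, for RBBP4, to -0.06 among males and within -0.10 to 0.36, and for SMARCA5, within -0.28 to 0.01. Against the index, 2 of 41 genes became 1 with replication genes only, without Tucker and Dal4, and without ChadG4 and Dal4. Of all 26891 tested probe sets, the 732 calls became 628, 167 and 205 in these settings. With 1 dog left out, 1 to 3 of the 41 genes were called, beside 257 to 885 of all tested probe sets. With array centring 2 genes were called, BRD7 in place of RBBP4, beside 646 of all tested probe sets. The causes of these changes were not tested. No paired analysis was possible because each array came from a different dog and the labels match no dog of 1 group to a dog of the other.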
